A study of Mus musculus with 6 samples.

Results

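The genes described here carry glucose into the cell, break it down to pyruvate and lactate, decide whether pyruvate enters the mitochondrion, and make up the HIF oxygen-sensing system with some of its well-known targets. They were chosen by symbol from general knowledge of these pathways, with earlier results of these data known. They number 45 among the 19078 genes that the deposited table lists. Of these, 44 were found under their own symbol, and *Pkm*, the gene of muscle-type pyruvate kinase, under its older symbol *Pkm2*.

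Poly(A)-selected RNA was sequenced from 3 libraries of *Ms4a15* OE cells and 3 libraries of control cells, 6 in all. Both are immortalized mouse fibroblasts (MF), derived from embryonic fibroblasts with a conditional *Gpx4* allele and Cre-ERt2 and carrying a CRISPR activation system. *Ms4a15* OE cells are a pool selected for a lentiviral guide that directs this system to *Ms4a15*, while the control cells are described in the study's methods as infected with empty lentivirus and are labelled wild type. Cells grew in DMEM with serum under added CO2, and an oxygen level is not given in the sources used here. Nothing in the labels says whether the libraries of a group came from separate cultures.

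For each gene, the value available here is the authors' mean of the normalized counts over all 6 libraries, *Ms4a15* OE and control together. The comparison of *Ms4a15* OE with control was therefore not analysed for these genes, and neither a spread between replicates nor a test is given. Every level below is a property of both cell populations at once, and a high level could come from one of them. The targeted gene *Ms4a15* had a mean of 638 normalized counts, which cannot check the labels because both groups enter it. Counting error alone, as a 95% Poisson interval on the reads behind each mean, stayed within 6.51% for members with at least 100 normalized counts and ran from 9.63% to 22.4% for those between 10 and 100.

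In glycolysis, glucose enters through facilitative transporters, is phosphorylated by hexokinase and is converted to pyruvate through a chain of cytosolic enzymes. Lactate dehydrogenase then interconverts pyruvate and lactate, and monocarboxylate transporters carry lactate across the plasma membrane. The alternative fate of pyruvate is the mitochondrial pyruvate dehydrogenase complex, which PDK kinases inhibit. The HIF factors are pairs of an oxygen-labile alpha subunit and ARNT. When oxygen is plentiful, prolyl hydroxylases of the EGLN family mark the alpha subunit and VHL targets it for degradation, so that HIF is controlled largely at the protein level, which RNA does not show. Many glycolytic genes are HIF targets.

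Among the 45 genes, 35 had a mean of at least 100 normalized counts, 8 lay between 10 and 100, and *Epas1* and *Adm* lay under 10. In the whole table, 54.7% of the genes reached 100 normalized counts, against 77.8% of the 45. The median level of the 45 genes was 2820 normalized counts, beside 237 for all genes of the table, and 81.7% of all genes were lower than this median. The set was picked partly from abundant housekeeping enzymes, so this difference describes the choice of genes as much as the cells. Together the 45 genes took 1.38% of all normalized counts, of which the 15 glycolytic enzymes alone took 1.05%.

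**Figure D1:**
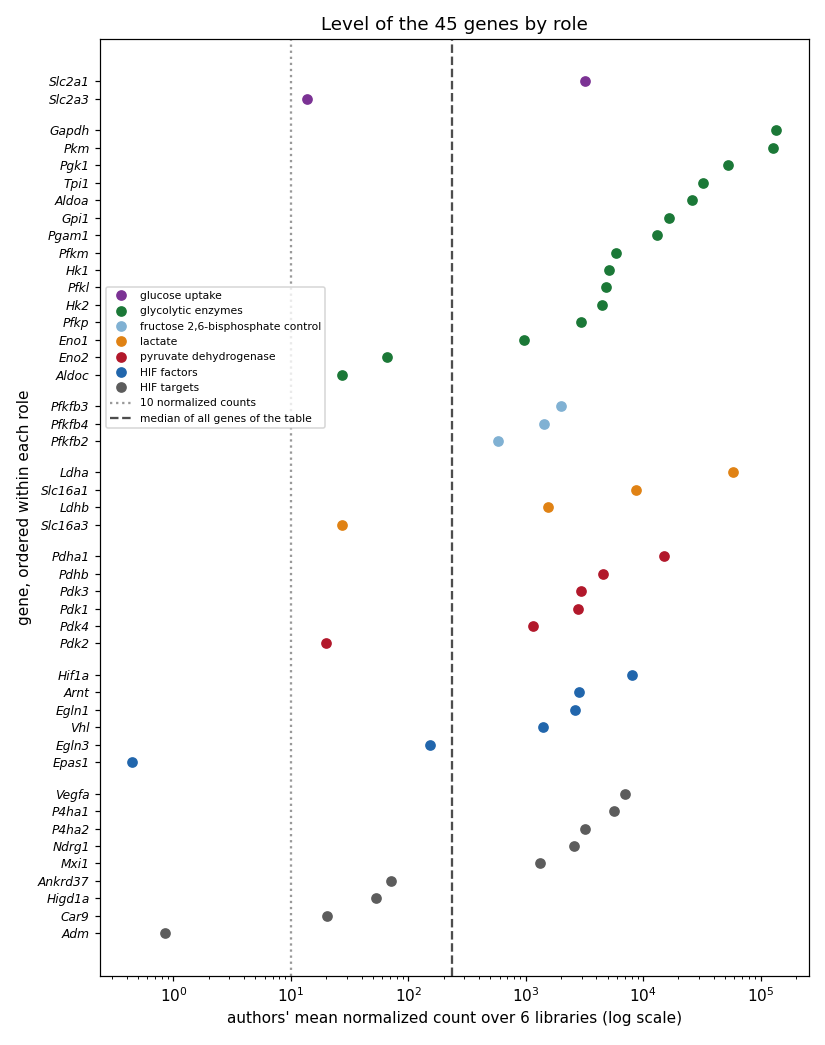
Authors' mean normalized count over the 6 libraries (log axis) for each of the 45 genes, coloured by role. The glycolytic enzymes run from *Aldoc* at 27.3 to *Gapdh* at 136242, and *Epas1* and *Adm* stand alone to the left of the line at 10 normalized counts; the dashed line is the median of all genes, 237.

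The cells carried RNA of most of the fibroblast markers looked up. Of 15 fibroblast markers, 12 had at least 100 normalized counts, a level that 54.7% of all genes reached. The highest was *Col1a2*, a collagen I chain, at 135155. *Dcn* stood at 12.1, *Lum* at 0.675, and *Fap* was not listed. Markers of other cells were low, with *Epcam* at 0.176 and *Ptprc* at 11.1 normalized counts, and the highest of the epithelial, endothelial and haematopoietic lists were *Krt14* at 170, *Cdh5* at 107 and *Cd68* at 164. Of the skeletal muscle, erythroid and neuronal lists, no gene reached 10 normalized counts. The part of other cell types in the levels below was not tested.

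**Figure D2:**
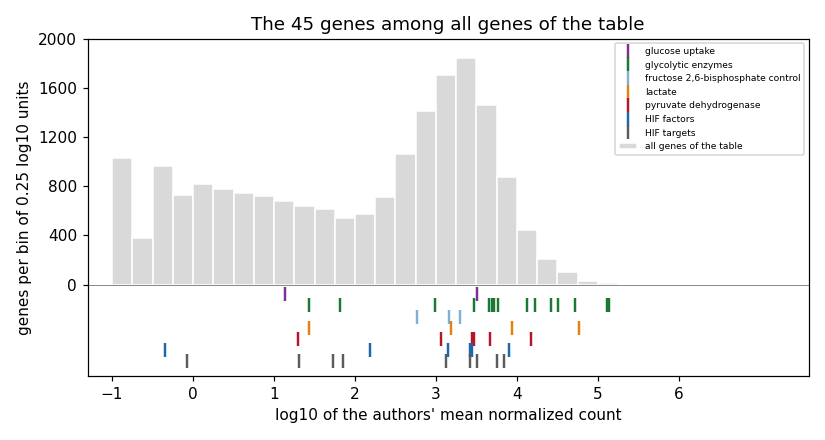
Number of genes per bin of the log10 mean normalized count for all 19078 genes (grey bars), with each of the 45 genes as a tick below the axis, coloured by role. Most ticks fall under the upper hump of the distribution, and the HIF factors and HIF targets spread over the widest range.

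Of the RNA of the 2 glucose transporter genes among the 45, nearly all came from 1. *Slc2a1*, the widespread basal glucose transporter GLUT1, on chromosome 4 from 119108711 to 119137983, had 3180 normalized counts. *Slc2a3*, the high-affinity transporter GLUT3 of neurons, had 13.6, with a counting interval from 10.8 to 16.9. Between genes, levels are compared per kilobase (kb) of merged coding-transcript exons, since longer transcripts give more reads. On this scale *Slc2a1* was 284 times *Slc2a3* and held 99.6% of the level of the pair. Of the transporters outside the 45, *Slc2a10* had 510 normalized counts, *Slc2a6* had 121 and *Slc2a9* had 30.4, while the liver transporter *Slc2a2* and the insulin-responsive *Slc2a4* had 0.151 and 2.61. With such paralogs from the wider lists added, *Slc2a1* held 81.7% per kb of exons.

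For hexokinase, the RNA was shared by several isoenzymes. *Hk1* and *Hk2*, the mitochondria-bound hexokinases that trap glucose in the cell, had 5134 and 4455 normalized counts, or 1058 and 794 per kb. *Hk1* thus held 57.1% of the pair, and 52.8% when levels were taken per kb of coding sequence. Of the related genes, *Hkdc1* had 50.5 normalized counts and *Hk3* had 0.763.

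Phosphofructokinase, the main regulated step of glycolysis, is built from 3 kinds of subunit, and the RNA of all 3 was present. *Pfkm*, the muscle-type subunit, was highest with 5832 normalized counts and 49.4% of the family per kb. *Pfkl*, the liver-type subunit, held 33.2% with 4869 normalized counts, and *Pfkp*, the platelet-type subunit, held 17.4% with 2943. Per kb of coding sequence the order was kept, at 42.8%, 35.7% and 21.5%. No subunit of this enzyme stood apart as *Slc2a1* did among the transporters.

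Fructose 2,6-bisphosphate, the strongest activator of phosphofructokinase, is made and removed by the bifunctional PFKFB enzymes. *Pfkfb3*, an isoenzyme with strong kinase activity that is induced by hypoxia, had 2002 normalized counts, *Pfkfb4* had 1445 and *Pfkfb2*, the heart isoenzyme, had 584. Which of them led depended on the length used. Per kb of exons *Pfkfb4* held 46.4% and *Pfkfb3* 40.6%, whereas per kb of coding sequence *Pfkfb3* held 46.6% and *Pfkfb4* 39.8%. *Pfkfb1*, the liver isoenzyme and not among the 45, had 352 normalized counts.

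Per kb of exons, every enzyme step from aldolase to lactate dehydrogenase other than enolase had a higher level than the steps before aldolase. *Aldoa*, the widespread aldolase, lies on chromosome 7 from 126795234 to 126800751 and had 26078 normalized counts, while *Aldoc*, the brain aldolase, had 27.3 with a counting interval from 23.3 to 31.8. *Aldoa* held 99.9% of the pair. *Tpi1*, which interconverts the triose phosphates, had 32239, and *Gpi1*, the isomerase that precedes phosphofructokinase, had 16604. *Pgk1*, the first ATP-forming enzyme of the pathway, had 52477, and *Pgam1*, the mutase after it, had 13120. The testis-restricted kinase gene *Pgk2* had 0.829 normalized counts.

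*Gapdh*, the dehydrogenase often used as a reference gene, had the highest level of the 45, at 136242 normalized counts, and ranked 10 among all genes. *Pkm* ranked 12 with 128699. Both lay within the 100 highest genes, together with *Ldha* and *Pgk1*, and 10 of the 45 lay within the 1000 highest. *Gapdh*, *Tpi1* and *Eno2* lie close together on chromosome 6, within 406 kb of each other, on the same strand. Their levels were nevertheless far apart, with *Eno2*, the neuronal enolase, at 65.3 normalized counts with a counting interval from 59.0 to 72.1.

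Summed over the isoenzymes among the 45 genes and taken per kb of exons, glyceraldehyde-3-phosphate dehydrogenase came first with 91132 normalized counts per kb, followed by pyruvate kinase with 49519, lactate dehydrogenase with 31808 and phosphoglycerate kinase with 28755. Triosephosphate isomerase had 18276 and aldolase 14307. Hexokinase had 1852, glucose uptake 979 and enolase, from *Eno1* and *Eno2*, 403. Per kb of coding sequence the first 8 places were the same, and *Eno1* with *Eno2* was again last, with 792. With *Eno3* and *Eno4* added, enolase had 3251 per kb of exons, place 10 of 13, and 4218 per kb of coding sequence, place 11. Without replicates it cannot be said which neighbours in this order differ beyond their spread.

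**Figure D3:**
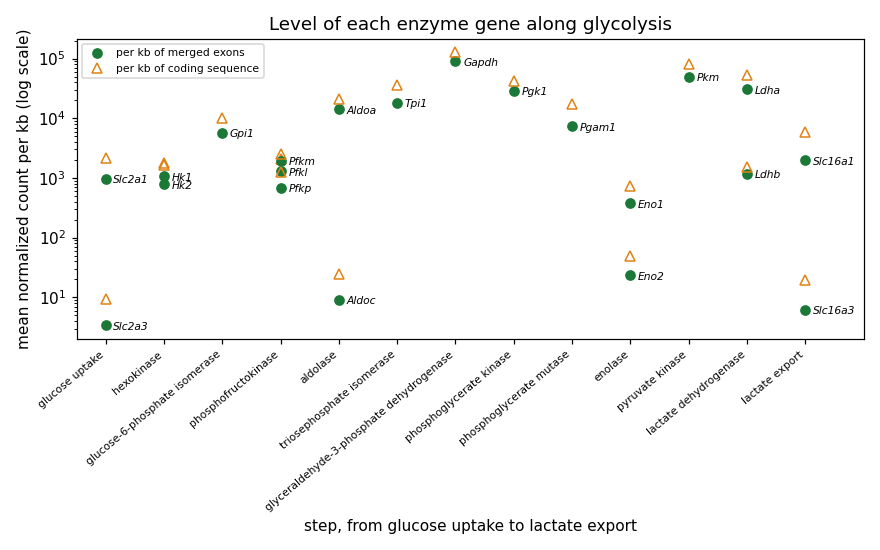
Mean normalized count per kb (log axis) of each gene, ordered by step from glucose uptake to lactate export, with circles per kb of merged exons and triangles per kb of coding sequence. *Gapdh* is highest at 91132 per kb of exons, and *Eno1* and *Eno2* fall below the main gene of every other step. *Eno3* is not among the 45 genes and is not plotted.

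*Eno1*, the widespread enolase, was low for this pathway, with 966 normalized counts and 379 per kb. *Eno3*, the muscle enolase, which is not among the 45, had 4459 normalized counts and 2847 per kb, 7.51 times *Eno1*. Part of the *Eno1* sequence also stands, on either strand, in transcripts of other genes, whose position was not checked. Of all 100-base stretches of the coding transcripts of *Eno1*, 39.5% stand without a mismatch in transcripts of 4 other genes, and of all 150-base stretches 31.9%. The deposited counts come from a read counter, whose treatment of reads with several matches is not given in the sources used here, so the level of *Eno1* is uncertain. The part of shared reads in the value was not tested. Because *Eno3* was not searched for shared stretches, its ratio to *Eno1* is uncertain as well.

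The same search was made for all 45 genes, with stretches as long as the reads in the study's methods (100 bases) and in the sample labels (150 bases). For 23 genes no 100-base stretch was shared, and for 9 genes over 10% were. *Pgk1* had the largest part, 67.0% with 3 other genes, followed by *Gapdh* with 53.1%, spread over 86 other genes, and *Pgam1* with 39.7%. *Pfkfb2* had 22.2%, *Higd1a* 19.9% and *Pfkp* 14.2%. *Ldha* had 0.746%, and *Tpi1* 0.721%. The largest shared parts were those of *Pgk1*, *Gapdh*, *Pgam1* and *Eno1*, and their effect on the levels was not tested.

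**Figure D4:**
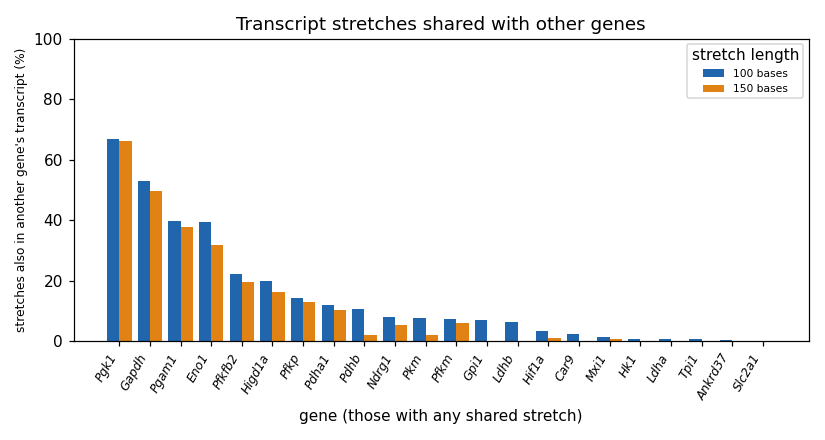
Percentage of the 100-base (blue) and 150-base (orange) stretches of each gene's coding transcripts that also occur in a transcript of another gene, for the 22 genes with any shared stretch. *Pgk1* reaches 67.0% and *Gapdh* 53.1% at 100 bases, and from *Ndrg1* rightwards the values are under 10%.

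In the RNA for lactate metabolism, 1 enzyme subunit and 1 transporter led. *Ldha*, the subunit that predominates in muscle and in glycolytic cells, on chromosome 7 from 46841475 to 46855627, had 58039 normalized counts. *Ldhb*, the heart-type subunit, had 1539. *Ldha* was 25.9 times *Ldhb* per kb of exons and held 96.3% of the pair, or 97.2% per kb of coding sequence. *Slc16a1*, the monocarboxylate transporter MCT1, on chromosome 3 from 104638668 to 104658462, had 8683 normalized counts, whereas *Slc16a3*, the lactate exporter MCT4 of strongly glycolytic cells and a known HIF target, had 27.4 with a counting interval from 23.4 to 32.0. Per kb, *Slc16a1* was 318 times *Slc16a3*. *Bsg*, the chaperone that brings both transporters to the membrane, had 16099.

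HIF binds DNA at a short core, written ACGTG or GCGTG. This core was searched on both strands in windows of 300 bases around transcription starts (250 before and 50 after) from RefSeq on GRCm38.p6, which hold 42 of the 45 genes. A match was found in at least 1 window for 38 of them, 90.5%. Among all 27025 genes with a window the share was 46.7%, and among those of the table with at least 100 normalized counts it was 70.0%. Some genes have several windows, and the core holds a CpG, so that its share moves with base composition. Of the 42 genes, 7 (16.7%) had CACGTG, which holds the core on both strands and is also the E-box bound by MYC and USF factors, beside 12.2% of the genes of the table with at least 100 normalized counts and 8.09% of all genes with a window.

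The 250 bases before the start are shown for both monocarboxylate transporters and for the first window of *Ldha*, because their levels differ so widely, and for *Adm*, the lowest HIF target. Capitals mark the core on either strand, and overlapping matches make up the 6 capitals of CACGTG. The windows are on the forward strand of GRCm38.p6, at chr3:104638414-104638663 for *Slc16a1*, chr11:120948817-120949066 for *Slc16a3*, chr7:46845554-46845803 for *Ldha* and chr7:110627407-110627656 for *Adm*.
Slc16a1: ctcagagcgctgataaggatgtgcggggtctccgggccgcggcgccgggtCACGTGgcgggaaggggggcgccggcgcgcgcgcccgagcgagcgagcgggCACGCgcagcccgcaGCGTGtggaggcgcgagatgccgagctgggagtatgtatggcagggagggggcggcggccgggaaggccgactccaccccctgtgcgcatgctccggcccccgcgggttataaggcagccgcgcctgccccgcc
Slc16a3: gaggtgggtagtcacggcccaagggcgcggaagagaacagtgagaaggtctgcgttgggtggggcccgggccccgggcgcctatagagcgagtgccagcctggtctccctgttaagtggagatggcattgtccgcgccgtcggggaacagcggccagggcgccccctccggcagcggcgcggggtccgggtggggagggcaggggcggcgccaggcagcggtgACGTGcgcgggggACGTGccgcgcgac
Ldha: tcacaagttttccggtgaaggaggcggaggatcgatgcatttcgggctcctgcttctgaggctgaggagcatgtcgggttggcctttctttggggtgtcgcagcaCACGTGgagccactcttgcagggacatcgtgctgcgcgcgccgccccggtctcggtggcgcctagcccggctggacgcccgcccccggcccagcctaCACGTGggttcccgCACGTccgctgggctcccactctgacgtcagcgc
Adm: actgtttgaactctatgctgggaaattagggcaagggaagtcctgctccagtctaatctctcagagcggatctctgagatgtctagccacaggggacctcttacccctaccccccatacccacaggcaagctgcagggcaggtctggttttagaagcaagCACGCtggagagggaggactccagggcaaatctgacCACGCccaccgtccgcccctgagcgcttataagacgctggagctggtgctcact

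Matches stood in all 4 sequences, 5 in *Ldha*, 4 in *Slc16a1*, 2 in *Slc16a3* and 2 in *Adm*. CACGTG stood in those of *Ldha* and *Slc16a1* and not in those of *Slc16a3* and *Adm*. These 4 windows were picked by level, and the other genes do not all follow them. Of the 7 genes with CACGTG in a window, *Pdk2* had only 19.8 normalized counts. The rest ran from *Pfkfb2* at 584 to *Ldha* at 58039. No window of *Gapdh*, *Pkm*, *Pgk1*, *Tpi1* or *Aldoa* held CACGTG, although these genes were among the highest. A link between matches and level was not tested. A match here is only a run of letters, and binding was not measured.

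At the entry of pyruvate into the mitochondrion, *Pdha1* and *Pdhb*, the subunits of the E1 component of pyruvate dehydrogenase, had 15004 and 4591 normalized counts. Of the kinases that inhibit this enzyme, *Pdk3* and *Pdk1* were nearly level before length was considered, at 2951 and 2782. Both are known to respond to HIF. *Pdk4*, the kinase induced by fasting and fatty acids, had 1151, and *Pdk2*, abundant in many tissues, had 19.8 with a counting interval from 16.4 to 23.7. Per kb of exons *Pdk3* held 61.4% of the family, *Pdk1* 23.6%, *Pdk4* 14.5% and *Pdk2* 0.389%. With coding length *Pdk3* held 43.5% and *Pdk1* 39.2%, so the lead of *Pdk3* was much smaller on that scale.

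Outside the 45, *Dlat* and *Dld*, the other core components of the complex, had 4503 and 7516 normalized counts. *Pdp2* and *Pdp1*, the phosphatases that reverse the kinases, had 814 and 439. *Mpc1* and *Mpc2*, which form the mitochondrial pyruvate carrier and are listed under *Brp44l* and *Brp44*, had 647 and 832. *Pdha2*, the testis form of *Pdha1*, had 0.147.

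**Figure D5:**
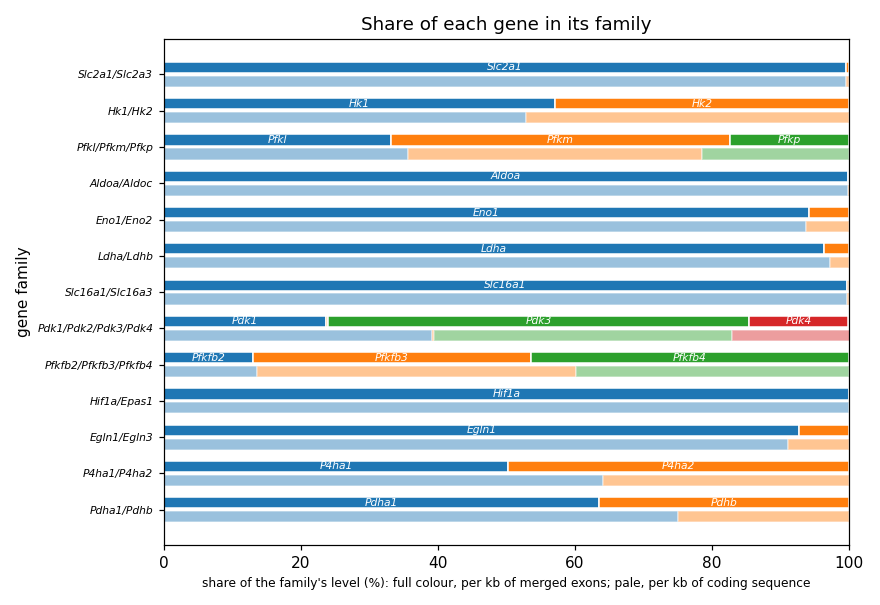
Share of each gene in the summed level of its family (%), counting only those among the 45, with levels per kb of merged exons in full colour and per kb of coding sequence in pale colour, segments in the order of the family's name. *Slc2a1*, *Aldoa*, *Slc16a1* and *Hif1a* each hold 99.6% or more, while hexokinase, phosphofructokinase, *Pdk*, *Pfkfb* and *P4ha* genes share theirs.

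Of the 2 HIF alpha subunits, *Hif1a* supplied nearly all of the RNA. *Hif1a*, on chromosome 12 from 73901375 to 73947530, had 7982 normalized counts and ranked 1106. *Epas1*, the gene of HIF-2alpha, on chromosome 17 from 86753700 to 86833410, had a mean of 0.448 normalized counts, which corresponds to 3 reads over the 6 libraries together. Its counting interval, taken from the mean over the average value of 1 read and not from 3 whole reads, ran from 0.0812 to 1.38. With so few reads no ratio between both genes is given. *Hif3a*, the third alpha subunit, had 0.351. *Arnt*, the common partner, had 2820, and its relative *Arnt2* had 80.6.

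The oxygen-sensing side was present as well. *Egln1*, the main prolyl hydroxylase PHD2, had 2654 normalized counts, and *Egln3*, the hydroxylase PHD3 that HIF induces, had 154 with a counting interval from 144 to 164. Per kb, *Egln1* was 12.8 times *Egln3*. *Egln2*, the third enzyme of the family, had 1281, so that *Egln3* was the lowest of the 3. With *Egln2* counted, *Egln1* held 53.6% of the family per kb of exons. *Vhl*, the substrate receptor of the ubiquitin ligase, had 1416, and *Hif1an*, the asparaginyl hydroxylase that blocks HIF's activation domain, had 3180.

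The 9 HIF targets covered the widest range of any group beside the factors themselves. *Vegfa*, the angiogenic growth factor, was highest with 6962 normalized counts. *P4ha1* and *P4ha2*, the catalytic subunits of collagen prolyl 4-hydroxylase, had 5629 and 3176, and *Ndrg1*, a stress-responsive gene, had 2598. *Mxi1*, a MAX partner that opposes MYC, had 1320. Per kb of exons *P4ha1* and *P4ha2* were nearly equal, at 1368 and 1358, whereas per kb of coding sequence *P4ha1* held 64.1% of the pair.

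The other 4 targets were low. *Ankrd37* had 70.9 normalized counts, *Higd1a*, a mitochondrial inner membrane protein, had 53.1, and *Car9*, the carbonic anhydrase widely used as a hypoxia marker, had 20.2 with a counting interval from 16.7 to 24.1. *Adm*, the gene of the peptide adrenomedullin, had 0.841, or 5 reads over the 6 libraries together. The targets therefore did not share 1 level. *Car9* and *Adm* stood among the low genes of the table, above 36.7% and 15.1% of all genes, while *Vegfa* stood above 93.2%.

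A wider list of 51 hypoxia-related symbols, chosen from general knowledge with earlier results of these data known, gave 46 further genes. Of these, 38 had at least 100 normalized counts and 4 lay under 10, with a median of 2058. Among all genes of the table, 54.7% reached 100. Among the high ones were *P4hb*, the beta subunit of collagen prolyl 4-hydroxylase, at 46419, and *Tfrc*, the transferrin receptor, at 22505. Many of them have functions apart from hypoxia. *P4ha3*, the third alpha subunit of collagen prolyl 4-hydroxylase, had 963.

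From the wider list of 48 glycolysis and pyruvate symbols, 40 genes were found, of which 23 had at least 100 normalized counts and 13 lay under 10. In the whole table, 54.7% of the genes reached 100, and 6164 of 19078 lay under 10. The median was 475. The low end held tissue-restricted forms such as *Fbp1*, the gluconeogenic phosphatase of liver and kidney, at 0.151, *Slc16a8*, the transporter MCT3 of the retinal pigment epithelium, at 0.364, and *Ldhal6b* at 9.34. *Pfkm* and *Eno3*, both named for muscle, were not at this low end.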

How the data were processed

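Reads were aligned by the authors with STAR against mm10, assigned to genes with HTSeq-count and normalized with DESeq2. The submitters' processing notes also name TopHat, Cufflinks and Cuffdiff, whose role is not given in the sources used here. The signal used here is a single deposited column, a gene's count after division by the size factor of its library, averaged over the 6 libraries. The other 5 columns hold the authors' own comparison of *Ms4a15* OE with control (log2 fold change, standard error, p-value, adjusted p-value and direction) and were not used. Single libraries were not analysed here, and the planned test between groups was not run.

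Size factors, taken from the lowest 6 values of the table, each being 1 read in 1 library, ran from 0.887 to 1.14. Which library has which was not determined. All means sum to 40991755 normalized counts. Reads behind a mean were taken as the mean over the average value of 1 read, which need not be a whole number. They gave Poisson intervals (95%), which cover counting error only. The totals of *Epas1* and *Adm* were found by matching whole reads to the mean. The size factors and the matching of whole reads were tested on simulated data. Lengths are merged exons of coding transcripts in GENCODE M21 (GRCm38, the assembly of mm10) or the longest coding sequence; of 2 records named *Aldoa*, the one overlapping the RefSeq gene was used. The 45 genes may all be named, with their gene families and the 3 highest and 3 lowest of the wider lists, among them *Slc2a2*, *Fbp1* and *Pdha2*; some of these genes are not reported here. Other genes of those lists and the cell type markers that are named were chosen after their values were seen. Members and lists were chosen with earlier results of these data known. Python 3.11.15, numpy 2.4.6, pandas 2.3.3, scipy 1.17.1 and matplotlib 3.10.9 were used.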

Additional observations from a re-analysis of the deposited data

How the results depend on the processing

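All levels are means over both groups, so no result here bears on *Ms4a15* OE against control. No paired analysis was possible because the result comes from no test. Another normalization, a low-count filter per library, a pseudocount and leaving out replicates, all planned, were not run, since single libraries were not analysed here. The length used for comparing genes moved most shares. With coding length and with no length, in that order, the share of *Hk1* was 52.8% and 53.5%, of *Pfkm* 42.8% and 42.7%, of *Aldoa* 99.9% in both, of *Ldha* 97.2% and 97.4%, of *Pdk3* 43.5% and 42.7%, of *Pfkfb4* 39.8% and 35.8%, of *Egln1* against *Egln3* 91.1% and 94.5%, of *P4ha1* 64.1% and 63.9%, and of *Pdha1* against *Pdhb* 75.1% and 76.6%. Counting only genes among the 45, the leading gene was the same in 12 of 13 families under both, the exception being *Pfkfb4*, which *Pfkfb3* passed. The shares of *Slc2a1*, *Eno1*, *Slc16a1* and *Hif1a* stayed within counting error. The number of genes above the floor was 43 at 10 normalized counts, 35 at 100 and 43 at 3 reads per library. The median of the 45 genes lay above 73.0% of the genes with at least 10 normalized counts, 81.7% of all genes and 66.6% of those with at least 100, as the compared genes changed. With paralogs from the wider lists added, a choice made after seeing the data, *Eno1* held 11.7% of the enolase genes, which *Eno3* led with 87.6%, *Egln1* held 53.6%, *Slc2a1* 81.7%, *Hk1* 56.7%, *Pfkfb4* 38.9%, *P4ha1* 43.7% and *Hif1a* 100.0%. The effect of stretches shared with other genes on the levels was not tested. Paralogs outside the 45, *Eno3* among them, were not searched for such stretches, so the shares of *Eno1* and *Eno3* are uncertain.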
